A study of Homo sapiens with 6 samples.

Results

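The 36 genes described here encode the enzymes of cholesterol synthesis, the proteins that control the SREBP transcription factors, and the nearest proteins of sterol transport, sterol efflux and fatty acid synthesis. They were chosen by name, with earlier results of these data known, and all 36 were found among the 35615 gene symbols of the table. Of these, 35 passed the filter on low counts and stood among the 14543 genes tested. The exception was ABCG1, a sterol exporter of the ATP-binding cassette family, with 1, 3 and 3 counts in the mimic libraries and 1, 5 and 5 in the control libraries. RNA was sequenced from K562 cells, a human erythroleukaemia line from chronic myeloid leukaemia that carries the BCR-ABL1 fusion kinase. In each culture the cells were nucleofected with 500 pmol of RNA and given 1 µM imatinib, an inhibitor of ABL1 and KIT kinases, 4 h later; RNA was taken after a further 24 h. The groups were 3 cultures nucleofected with a mimic of the microRNA hsa-miR-92a-1-5p (mimic 1 to 3), whose genotype label reads miR-92a overexpression, and 3 with a negative-control mimic labelled scramble (control 1 to 3). All cultures came from the same line and all had imatinib, so the comparison is of the mimic within imatinib-treated cells; cells without the drug or without nucleofection were not analysed here.

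Mimic 1 held 704448 counts, against 24751862 to 25982085 in the other 5 libraries, and in mimic 1 the tested members had a median of 34 counts, with 12 of the 35 under 20. Replicate 3 stood apart from replicates 1 and 2 in both groups, as set out below for these genes. Calls of the sterol genes made with the replicate number as a block are given with what leaving out a same-numbered pair did to them. The cells carried the erythroid genes of K562: all 9 listed markers were present, from GATA1, an erythroid transcription factor, at 176 to 222 CPM in mimic libraries and 171 to 221 CPM in control libraries, to the globins. Of the granulocyte and monocyte markers MPO was at 0 in all libraries and ELANE at 0.038 CPM or below, although the cell type label reads myeloblast. The sum of the 4 markers of that list was 10.6 to 40.0 CPM in mimic libraries and 21.0 to 58.1 CPM in control libraries, nearly all of it LYZ. None of the 9 erythroid markers passed between groups in the test on group alone, but with the replicate number as a block (below) HBZ, an embryonic globin, and TFRC, the transferrin receptor, were among those lower with the mimic. The erythroid transcription factors GATA1, TAL1 and KLF1 did not pass with the block. TFRC had 886, 833 and 1219 CPM in mimic 1, 2 and 3, against 1364, 1326 and 2031 CPM in control 1, 2 and 3 (blocked log2 fold change -0.68, edgeR adjusted p = 2.0e-06). CPM, the count set relative to the size of the library, is scaled here by TMM, which corrects for library composition; it is not divided by transcript length, so a higher CPM of one gene than of another is not a higher level, and levels are compared between libraries.

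Cells build cholesterol from acetyl-CoA through mevalonate and squalene. SREBP precursors wait in the membrane of the endoplasmic reticulum bound to SCAP, which carries them to the Golgi when sterols are scarce; there the proteases MBTPS1 and MBTPS2 release the active factor, which turns on the synthesis genes. INSIG1 and INSIG2 hold SCAP back when sterols are plentiful, and INSIG1 is itself an SREBP target. LXR receptors, encoded by NR1H2 and NR1H3, sense oxidised sterols and raise efflux genes. Blood cell lines take up lipoprotein cholesterol and also make their own.

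The mimic carries the strand below, and its seed, bases 2 to 8, is the part that pairs with target transcripts. The partner strand of the same hairpin has another seed and is shown for comparison. Seeds are in capitals, and the sequences are those of RefSeq on GRCh38.p14, plus strand, at chr13:91351324-91351346 and chr13:91351361-91351382.
hsa-miR-92a-1-5p: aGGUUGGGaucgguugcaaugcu
hsa-miR-92a-3p: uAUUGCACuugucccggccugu

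Of the 35 tested members 2 (5.71%) held a 7-base match to the mimic seed in their longest annotated 3′ UTR, against 16.9% of all 12888 genes that were tested and have an annotated UTR. The matches searched were the 8mer CCCAACCA, the 7mer-m8 CCCAACC and the 7mer-A1 CCAACCA. Both member sites were of the 7mer-A1 kind, in MYLIP (GRCh38 chr6:16147198-16147204, plus strand) and SCD (chr10:100364293-100364299, plus strand). They are shown with 11 bases on each side, the match in capitals, because MYLIP and SCD are also among the members that were lower with the mimic in the fit described below.
MYLIP: gtcatggagctCCAACCAtttttaatagg
SCD: ccagggcctctCCAACCActgtgccactg

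INSIG1, the member with the largest fitted decrease, had no match to the mimic seed in its 3′ UTR of 1965 bases. It held a 7mer-m8 for the partner strand miR-92a-3p at chr7:155309296-155309302 (plus strand), shown with the match in capitals. The share of members with a miR-92a-3p match was 25.7% (9 of 35), against 20.1% of all tested genes with a 3′ UTR. Among these were also MYLIP (8mer) and SCD (7mer-m8), which held a mimic-seed match as well, and STARD4 (7mer-A1). The rest were ACAT2, INSIG2, NPC1, SOAT1 and ACACA, which passed in neither fit described below. A match is a description of the letters, and the isoforms that K562 cells use were not measured.
INSIG1: ttaaacttcaaGTGCAATgtatatgaaaa

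The main comparison asked which transcripts differed with the mimic. In edgeR's quasi-likelihood test with group as the only term, adjusted by Benjamini-Hochberg over all 14543 genes, 1 of the 35 tested members was lower (2.86%, where 0.976% of all tested genes were lower) and 0 were higher (0.433% of all tested genes were). At an unadjusted p under 0.05 there were 4 lower members (11.4%, against 7.51% of all tested genes) and 2 higher ones (5.71%, against 6%); DESeq2 called the same single member and limma-voom none. The median log2 fold change of the 35 was -0.04, beside -0.01 for all tested genes, and 19 were negative and 16 positive. With the replicate number as a block, 7 members were lower (20%, against 6.7% of all tested genes) and 1 was higher (2.86%, against 4.57%). The 7 were INSIG1, MSMO1, IDI1, CYP51A1, STARD4, MYLIP and SCD, and the 1 that rose was SCAP. In the same fit the erythroid markers HBZ and TFRC were lower, and none of the erythroid markers passed as higher. TAL1, KLF1 and GATA1 had positive changes (0.21, 0.12 and 0.005), and the globins HBG1 and HBE1 negative ones (-0.15 and -0.12). None of those named in the last sentence passed. LYZ was lower too (-0.72, edgeR adjusted p = 0.001). The part of these marker changes in the sterol genes was not tested. At an unadjusted p under 0.05 the block gave 8 lower members (22.9%, against 13.3%) and 3 higher ones (8.57%, against 10.8%). In 5 members every mimic library lay below every control library (14.3%, against 11.5% of all tested genes), and in 1 every mimic library lay above (2.86%, against 9.73%). Without the replicate 1 pair, which holds the shallow library, the blocked fit kept 5 of the 7 lower members and SCAP; CYP51A1 and SCD no longer passed. Without the replicate 2 pair INSIG1, MYLIP and STARD4 passed, and without the replicate 3 pair 6 of the 7 and SCAP passed, together with DHCR7.

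**Figure D1:**
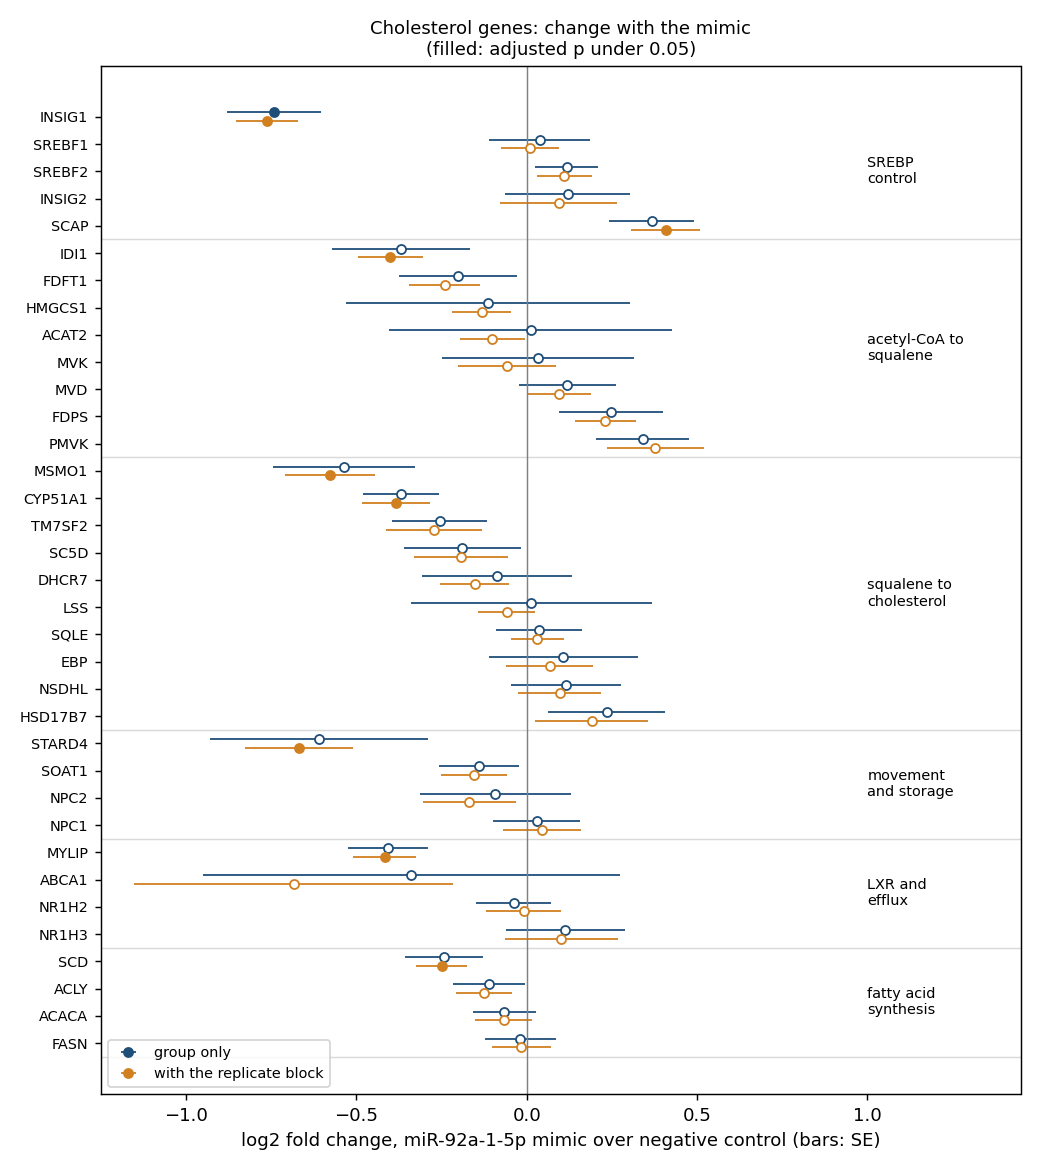
Fitted log2 fold change of each tested member, mimic over control, without (blue) and with (orange) the replicate number as a block; bars are standard errors and filled points passed an adjusted p of 0.05. INSIG1 is filled in both fits at -0.74 and -0.76, while HMGCS1, ACAT2 and LSS have wide blue and narrow orange bars centred near 0.

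INSIG1, the protein that retains SCAP in the endoplasmic reticulum (GRCh38 chromosome 7, 155297776 to 155310235), had 58.5, 66.5 and 78.9 CPM in mimic 1, 2 and 3, against 107, 108 and 136 CPM in control 1, 2 and 3. Every mimic library lay below every control library. INSIG1 averaged 68.0 ± 10.3 CPM with the mimic and 117 ± 16.4 CPM with the control (SD, n = 3 each), a log2 fold change of -0.74 ± 0.14 (SE, edgeR adjusted p = 0.045). With the block the INSIG1 change was -0.76 ± 0.09 (adjusted p = 7.6e-06), and it passed with each same-numbered pair left out in turn (adjusted p up to 6.3e-04). In the fit on group alone INSIG1 passed without mimic 3 but not without any of the other 5 libraries, with adjusted p from 0.042 to 0.172 over the 6 such fits and 0.139 without the shallow mimic 1. In limma-voom its adjusted p was 0.051. The fold change stayed between -0.87 and -0.61 in the fits that left out a library. Its value in mimic 1 rested on 43 counts, with a counting error of 15.2%.

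Because all libraries are bulk cultures, fewer cells of a type and less RNA per cell cannot be told apart in any of these values. INSIG2, the relative of INSIG1 that does the same work but is not an SREBP target, had 16.3, 12.1 and 11.1 CPM in mimic libraries and 10.7, 10.5 and 12.5 CPM in control libraries. The INSIG2 groups overlapped, and its log2 fold change was 0.12 with a 95% interval of -0.30 to 0.54; the highest INSIG2 value, in mimic 1, stood for 12 counts.

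SCAP, the escort that INSIG proteins restrain (chromosome 3, 47413694 to 47477126), had 87.1, 113 and 106 CPM in mimic 1, 2 and 3, against 89.8, 81.8 and 71.5 CPM in control 1, 2 and 3. Mimic 1, the shallow library, lay just below control 1, so the groups overlapped. The SCAP log2 fold change was 0.37 ± 0.12 (SE) and did not pass on group alone (edgeR adjusted p = 0.241), whereas with the block it was 0.41 ± 0.10 and passed (adjusted p = 0.011). Without the replicate 2 pair the blocked change of SCAP was 0.34 and did not pass (adjusted p = 0.219), and without the replicate 1 pair it was 0.52. By pair the SCAP difference was -0.05, 0.47 and 0.57 on the log2 scale for replicates 1, 2 and 3.

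The balance of SCAP against INSIG1 within a library does not depend on how libraries are scaled. There were 1.49, 1.70 and 1.34 SCAP counts per INSIG1 count in mimic 1, 2 and 3, against 0.836, 0.759 and 0.526 in control 1, 2 and 3. The ratio was higher in every mimic library than in any control library. This ratio was formed after the values of both genes were seen and is given with no test.

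Neither transcription factor passed in either fit. SREBF2, the main driver of cholesterol genes, had 226, 235 and 267 CPM in mimic libraries and 218, 231 and 227 CPM in control libraries. Its log2 fold change was 0.12 with a 95% interval of -0.09 to 0.33 (adjusted p = 0.659). SREBF1, whose products favour fatty acid genes, had 141, 132 and 171 CPM with the mimic and 126, 137 and 173 CPM with the control, and a log2 fold change of 0.04 (95% interval -0.30 to 0.38).

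Among the 8 enzymes from acetyl-CoA to squalene, 1 was lower with the block (IDI1) and none passed on group alone. IDI1, which isomerises isopentenyl diphosphate, had 53.1, 50.4 and 71.4 CPM in mimic 1, 2 and 3, against 67.0, 64.4 and 98.8 CPM in control 1, 2 and 3. Each mimic library lay below the control library of its own number, but mimic 3 lay above control 1 and 2, so the groups overlapped. The IDI1 log2 fold change was -0.37 ± 0.20 on group alone (edgeR adjusted p = 0.495) and -0.40 ± 0.10 with the block (adjusted p = 0.009). Without the replicate 2 pair it did not pass (adjusted p = 0.098). IDI1 exons overlap those of the antisense gene IDI2-AS1, and the strand of the libraries is not given in the sources used here. Reads in the shared stretches therefore cannot be told apart by strand.

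PMVK, phosphomevalonate kinase, was the only enzyme of this stretch with every mimic library above every control library, at 19.0, 22.0 and 22.4 CPM with the mimic, against 18.6, 17.1 and 15.8 CPM with the control. Its value in mimic 1 rested on 14 counts, with a counting error of 26.7%, and exceeded control 1 by only 0.03 on the log2 scale. The PMVK log2 fold change of 0.34 ± 0.14 did not pass on group alone (adjusted p = 0.326) or with the block (0.097). HMGCS1, which makes HMG-CoA, had 122, 108 and 240 CPM with the mimic and 120, 113 and 292 CPM with the control, for a log2 fold change of -0.11 ± 0.42. The remaining members were ACAT2 (the cytosolic thiolase), MVK (mevalonate kinase), MVD (which decarboxylates mevalonate diphosphate), FDPS (farnesyl diphosphate synthase) and FDFT1 (squalene synthase). Their log2 fold changes ran from -0.20 for FDFT1 to 0.25 for FDPS, and none passed in either fit. FDPS has 8 annotated pseudogenes with which reads can be shared, so its value is uncertain.

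Of the 10 enzymes from squalene to cholesterol, MSMO1 and CYP51A1 were lower with the block and none passed on group alone. These enzymes act in sequence: CYP51A1 removes the 14-alpha-methyl group of lanosterol and MSMO1 oxidises the methyl groups at carbon 4. MSMO1 had 15.0, 17.5 and 25.3 CPM in mimic 1, 2 and 3, against 27.1, 26.2 and 36.1 CPM in control 1, 2 and 3, with no overlap of the groups. The MSMO1 log2 fold change was -0.54 ± 0.21 (adjusted p = 0.311) and with the block -0.58 ± 0.13 (adjusted p = 0.007); mimic 1 held 11 MSMO1 counts, and without the replicate 2 pair the adjusted p was 0.075. CYP51A1 had 46.3, 56.3 and 57.5 CPM in mimic libraries and 67.1, 68.6 and 77.3 CPM in control libraries, again with no overlap. The CYP51A1 change was -0.37 ± 0.11 (adjusted p = 0.194), or -0.38 ± 0.10 with the block (adjusted p = 0.015), and it missed the threshold without the replicate 1 pair (0.067) or the replicate 2 pair (0.078). CYP51A1 has 3 annotated pseudogenes, which held at most 0.119 CPM apiece in all libraries but control 1, where CYP51A1P2 had 0.235 CPM; an antisense gene and other transcripts overlap its exons.

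SQLE, squalene epoxidase, had 294, 317 and 394 CPM with the mimic and 321, 302 and 366 CPM with the control, a log2 fold change of 0.04 with a 95% interval of -0.25 to 0.33. TM7SF2, a C14 sterol reductase, had 13.6, 18.2 and 17.4 CPM in mimic libraries, against 19.7, 20.4 and 21.7 CPM in control libraries, with no overlap, but did not pass on group alone or with the block (adjusted p = 0.492 and 0.249). The other 6 were LSS (lanosterol synthase), NSDHL and HSD17B7 (which finish removal of the carbon 4 methyl groups), EBP (a sterol isomerase), SC5D (a sterol desaturase) and DHCR7 (7-dehydrocholesterol reductase). Their log2 fold changes lay between -0.19 for SC5D and 0.23 for HSD17B7, and none passed in either fit. HSD17B7 has 2 annotated pseudogenes, and TM7SF2 exons overlap those of VPS51 on the same strand.

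The summed CPM of these enzymes differed between groups by less than the SD within a group, which replicate 3 widens in both. The 8 genes up to squalene summed to 602 ± 188 CPM with the mimic and 622 ± 193 CPM with the control (SD, n = 3 each), and the 10 genes beyond it to 775 ± 182 CPM with the mimic and 815 ± 144 CPM with the control. Within same-numbered pairs the first sum was lower with the mimic in all 3 (490, 498 and 819 CPM in mimic 1, 2 and 3, against 515, 507 and 845 CPM in control 1, 2 and 3). The other sum was 649, 694 and 983 CPM in mimic libraries and 736, 728 and 982 CPM in control libraries, lower with the mimic in pairs 1 and 2. The sums were not tested. Relative to these enzymes INSIG1 was lower in every mimic library: it gave 5.14, 5.58 and 4.38 counts per 100 counts of the 18 enzymes in mimic 1, 2 and 3, against 8.59, 8.72 and 7.44 in control 1, 2 and 3. This ratio, too, was formed after the values were seen and has no test.

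**Figure D2:**
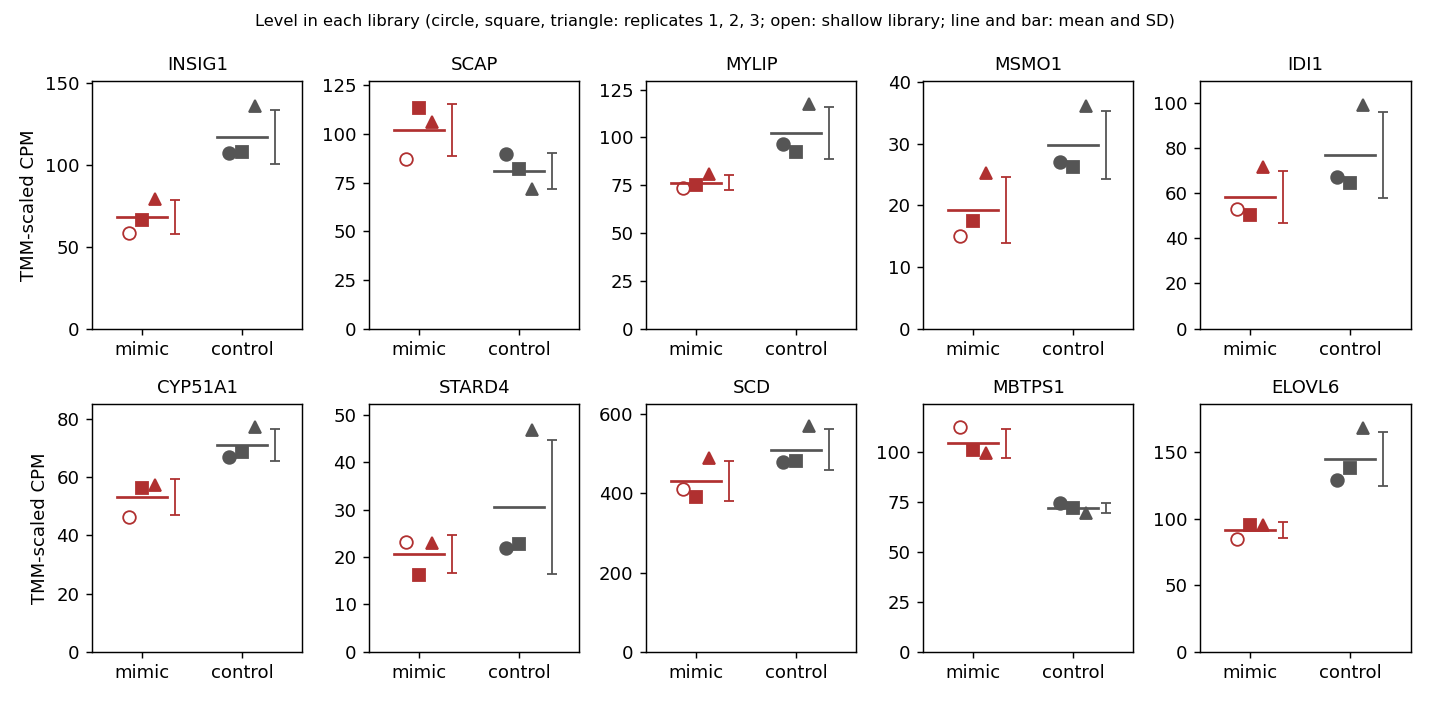
TMM-scaled CPM in each library (left, mimic; right, control) for the 8 members that passed with the block and for MBTPS1 and ELOVL6; lines and bars are means and SD of 3 libraries, and the open circle is the shallow mimic 1. INSIG1, MYLIP, MSMO1, CYP51A1 and ELOVL6 lie lower in every mimic library than in any control library, and MBTPS1 higher.

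Among the 4 genes of sterol movement and storage STARD4 was lower with the block. STARD4, a soluble sterol carrier, had 23.1, 16.1 and 22.9 CPM in mimic 1, 2 and 3, against 21.9, 22.8 and 46.9 CPM in control 1, 2 and 3. The control value of replicate 3 was the high one; by pair the difference was 0.08, -0.50 and -1.03 on the log2 scale. The STARD4 change was -0.61 ± 0.32 on group alone (adjusted p = 0.471) and -0.67 ± 0.16 with the block (adjusted p = 0.008), but -0.37 without the replicate 3 pair (adjusted p = 0.309). In replicates 1 and 2 alone, with group as the only term, it was -0.42 (adjusted p = 0.029). Its exons overlap those of the antisense gene STARD4-AS1. SOAT1, which esterifies cholesterol for storage, had 54.4, 60.3 and 66.4 CPM with the mimic and 64.1, 63.8 and 76.1 CPM with the control (log2 fold change -0.14, 95% interval -0.41 to 0.13). NPC1 and NPC2, which move cholesterol out of lysosomes, had log2 fold changes of 0.03 and -0.09 and did not pass.

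In the LXR and efflux group MYLIP was lower with the block. MYLIP, a ubiquitin ligase that marks lipoprotein receptors for degradation and is induced by LXR (chromosome 6, 16129125 to 16148248), had 73.5, 74.9 and 80.7 CPM in mimic libraries, against 96.3, 92.4 and 118 CPM in control libraries, with no overlap. The MYLIP change was -0.41 ± 0.12 (adjusted p = 0.171) on group alone and -0.42 ± 0.09 with the block (adjusted p = 0.005), and it passed in the blocked fit with each pair left out in turn. NR1H2 and NR1H3 had log2 fold changes of -0.04 (95% interval -0.29 to 0.21) and 0.11 (-0.29 to 0.51). ABCA1, a cholesterol exporter that LXR induces, was close to the limit of detection, with 0, 11 and 36 counts in mimic libraries and 17, 25 and 41 in control libraries. In mimic 1, 3 counts would stand for 4.08 CPM, above the highest ABCA1 level in any library (1.70 CPM), so no difference was detectable there at that depth; the fitted log2 fold change was -0.34 with a 95% interval of -1.74 to 1.06.

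Of the fatty acid genes SCD was lower with the block and ACLY, ACACA and FASN did not pass. SCD, the stearoyl-CoA desaturase, had 412, 392 and 489 CPM with the mimic and 481, 482 and 570 CPM with the control. Each mimic library was below its own-numbered control, and mimic 3 was above control 1 and 2. The SCD change was -0.24 ± 0.11 (adjusted p = 0.414) and with the block -0.25 ± 0.07 (adjusted p = 0.035), which missed the threshold without the replicate 1 pair (0.134) or the replicate 2 pair (0.406). FASN, fatty acid synthase, had 513, 528 and 603 CPM with the mimic and 560, 608 and 503 CPM with the control, a log2 fold change of -0.02 with a 95% interval of -0.26 to 0.22. ACACA, which makes malonyl-CoA, and ACLY, which makes cytosolic acetyl-CoA, had log2 fold changes of -0.07 and -0.11 and did not pass.

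A further 47 genes of the pathway that are not members were listed by role, also with earlier results of these data known. They gave 42 tested genes, of which 1 was lower and 1 higher on group alone (2.38% each, beside the 0.976% and 0.433% above). The higher gene was MBTPS1, the protease that makes the initial cut in SREBP after SCAP delivers it (chromosome 16, 84053761 to 84116906). MBTPS1 had 113, 101 and 99.5 CPM in mimic 1, 2 and 3, against 74.8, 72.1 and 69.7 CPM in control 1, 2 and 3, with no overlap, and a log2 fold change of 0.51 ± 0.09 (edgeR adjusted p = 0.038). The lower gene was ELOVL6, which elongates palmitate (chromosome 4, 110045846 to 110199199), with 84.4, 95.02 and 94.96 CPM in mimic libraries against 129, 138 and 168 CPM in control libraries, a log2 fold change of -0.64 ± 0.12 (adjusted p = 0.043). Both passed with the block (adjusted p = 5.0e-04 and 4.2e-05) and in the blocked fit with each pair left out. On group alone the MBTPS1 call was lost without each library in turn (0.059 to 0.209) and the ELOVL6 call without each except control 3 (0.046 to 0.140). After thinning all libraries to the depth of mimic 1 neither passed (0.113 for MBTPS1 and 0.158 for ELOVL6), and ELOVL6 missed the threshold in limma-voom (0.0535). Per INSIG1 count there were 1.93, 1.52 and 1.26 MBTPS1 counts in mimic libraries, against 0.696, 0.669 and 0.513 in control libraries, a ratio formed after the values were seen.

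With the block 6 of the 42 were lower (14.3%, against 6.7% of all tested genes) and 1 higher (2.38%, against 4.57%). Besides ELOVL6 the lower ones were ERLIN1, FADS1, OSBP, LPIN1 and FAXDC2. ERLIN1, a membrane protein that binds SREBP complexes and cholesterol, had 29.9, 34.4 and 26.2 CPM with the mimic and 60.8, 59.1 and 42.0 CPM with the control (blocked log2 fold change -0.77 ± 0.11, adjusted p = 8.7e-05; 0.075 on group alone). The fatty acid desaturase FADS1 averaged 356 ± 82.4 CPM in mimic libraries, against 523 ± 111 CPM in control libraries, with a blocked change of -0.57 ± 0.08. OSBP, an oxysterol-binding lipid carrier, changed by -0.40 ± 0.09, LPIN1, a phosphatidate phosphatase, by -0.43 ± 0.10 and FAXDC2 by -0.33 ± 0.09, all with the block. Exons of ERLIN1 overlap those of CHUK on the same strand. Exons of FADS1, FAXDC2 and LPIN1 overlap those of FADS2, CNOT8 and AC012456.2, in that order, on the opposite strand. ERLIN1, FADS1 and LPIN1 passed in the blocked fit with each pair left out in turn. The blocked call of OSBP was lost without the replicate 1 pair (adjusted p = 0.077) or the replicate 2 pair (0.165), and that of FAXDC2 without either as well (0.061 and 0.103). In the main test, on group alone, none of the 5 passed. DESeq2 called ERLIN1 (adjusted p = 0.003) and FADS1 (0.044), and edgeR on group alone with no filter called ERLIN1 (0.033). In edgeR on group alone without control 3 the change of LPIN1 was -0.05, against -0.38 with all libraries. That of FAXDC2 was -0.05, against -0.30, and ERLIN1 then passed (-0.99, adjusted p = 0.018). ERLIN1, FADS1 and OSBP each held a match to the mimic seed, and ELOVL6, LPIN1 and FAXDC2 held none. Of the 41 tested genes of this list with a 3′ UTR, 8 (19.5%) held a match, against 16.9% of all tested genes with a 3′ UTR. The others were MBTPS2, C12orf49, DHDDS, PDSS2 and GRAMD1A (8mer), which passed neither on group alone nor with the block. Their log2 fold changes on group alone were positive for MBTPS2 (0.25) and negative for the rest, down to -0.31 for GRAMD1A. The sites of ERLIN1 (8mer, chr10:100151506-100151513), FADS1 (7mer-m8, chr11:61801291-61801297) and OSBP (7mer-m8, chr11:59575752-59575758), all on the minus strand, are shown with the match in capitals.
ERLIN1: gagctttgctaCCCAACCAgattcctcata
FADS1: tccctttgcttCCCAACCtaaaatttcaa
OSBP: acttttgctttCCCAACCccccttaatgc

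Most members were higher in replicate 3 than in the other cultures of their own group. Control 3 was higher than the mean of control 1 and 2 for 30 of the 35 tested members (85.7%, against 50.6% of all tested genes), and mimic 3 was higher than mimic 2 for 30 (85.7%, against 50%); 26 members were higher in both groups (74.3%, against 36%). The medians were 0.29 on the log2 scale in the mimic group and 0.27 in the control group, where the medians of all tested genes were 0.00 and 0.00. Mimic 2 alone was used for the mimic group because of the depth of mimic 1.

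Of the 18 synthesis enzymes 15 (83.3%) were higher in replicate 3 in both groups. ACAT2 had 44.9, 52.3 and 121 CPM in mimic 1, 2 and 3, against 52.6, 58.0 and 122 CPM in control 1, 2 and 3. LSS had 121, 116 and 248 CPM with the mimic and 119, 130 and 247 CPM with the control. In both genes, as in HMGCS1, replicate 3 was the high library of each group and the groups overlapped throughout. Replicate 3 lay over 1.5-fold above the others in both groups for 4 members (ACAT2, HMGCS1, LSS and ABCA1; 11.4%, against 4.52% of all tested genes), and for 0 members it lay as far below (4.41% of all tested genes). The exons of ACAT2 overlap those of SOD2, SOD2-OT1 and TCP1, all on the opposite strand. TCP1 had 604, 590 and 632 CPM in mimic 1, 2 and 3 and 576, 563 and 499 CPM in control 1, 2 and 3. TCP1 was highest in mimic 3, as ACAT2 was, and lowest in control 3, where ACAT2 was highest. Levels of SOD2 and SOD2-OT1 are not given here. The part of reads from overlapping genes in the ACAT2 values was not tested.

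The SREBP control genes followed in part. INSIG1 was higher in replicate 3 by 0.25 in the mimic group and 0.34 in the control group, and SREBF1 by 0.38 and 0.40 (log2 differences), whereas SCAP was lower by 0.10 and 0.26. Erythroid markers moved with replicate 3 as well: 7 of the 9 were higher there in both groups, and their sum was 9242, 9640 and 18302 CPM in mimic 1, 2 and 3 and 11751, 11877 and 19391 CPM in control 1, 2 and 3, most of it globin transcripts. Their part in the levels of the sterol genes was not tested. What the replicate number marks, beyond a biological replicate, is not given in the sources used here.

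**Figure D3:**
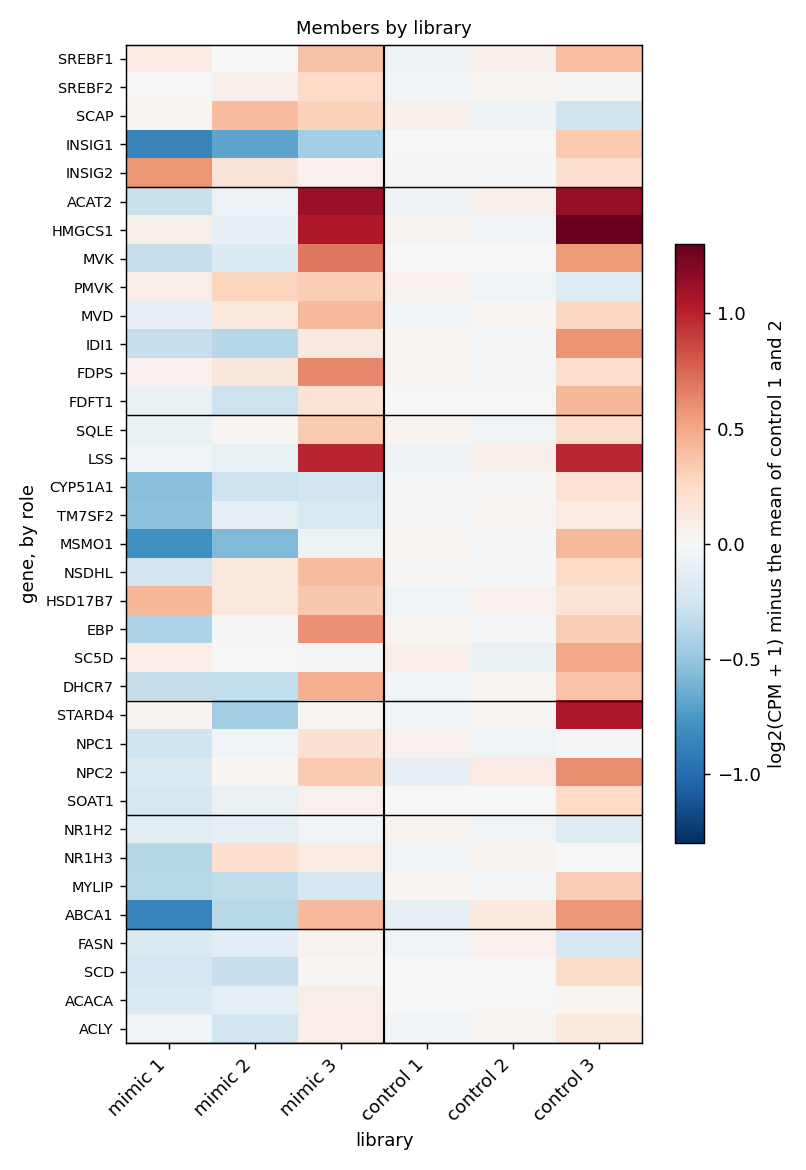
Tested members (rows, by role) in the 6 libraries (mimic left, control right), as log2(CPM + 1) minus the mean of control 1 and 2. ACAT2, HMGCS1 and LSS are high in replicate 3 of both groups, and the INSIG1 row is low in all 3 mimic libraries.

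**Figure D4:**
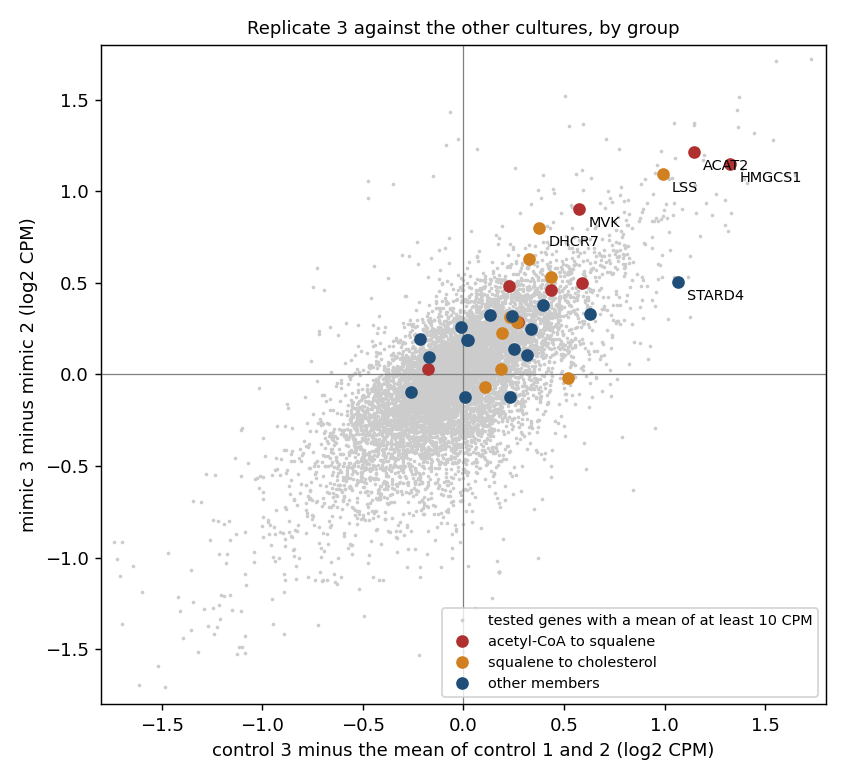
Log2 difference of replicate 3 from the other cultures, in the mimic group (vertical, mimic 3 minus mimic 2) and the control group (horizontal, control 3 minus the mean of control 1 and 2), for the tested members except ABCA1 over the tested genes with a mean of at least 10 CPM. ACAT2, HMGCS1 and LSS sit near 1 on both axes, and STARD4 at 0.51 in the mimic group and 1.07 in the control group.

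Promoters of INSIG1, which was lower with the mimic in both fits, and HMGCS1, which was high in replicate 3, are printed from RefSeq (GRCh38.p14; 250 bases before the start of the gene and 50 after it). The INSIG1 window is chr7:155297628-155297927 on the plus strand and the HMGCS1 window chr5:43313363-43313662 on the minus strand, and both run 5′ to 3′ along the gene. Capitals mark the CCAAT box, searched as CCAAT on both strands, which binds the SREBP partner NF-Y. Of the 31 members with a RefSeq promoter, 20 (64.5%) held CCAAT, against 35.7% of all 27305 promoters. The SREBP element core searched, TCACNCCAC on both strands, was found in 1 of the 31 (SREBF2, 3.23%) and in 1.15% of all promoters. Other forms of SREBP site were not searched for, so a window without this core is not shown to lack one.
INSIG1: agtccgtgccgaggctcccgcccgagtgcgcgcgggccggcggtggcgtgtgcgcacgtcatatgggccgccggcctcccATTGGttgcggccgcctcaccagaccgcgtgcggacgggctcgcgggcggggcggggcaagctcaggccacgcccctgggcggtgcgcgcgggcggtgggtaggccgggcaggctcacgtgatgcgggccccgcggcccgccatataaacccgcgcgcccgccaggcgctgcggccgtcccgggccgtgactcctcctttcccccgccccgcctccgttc
HMGCS1: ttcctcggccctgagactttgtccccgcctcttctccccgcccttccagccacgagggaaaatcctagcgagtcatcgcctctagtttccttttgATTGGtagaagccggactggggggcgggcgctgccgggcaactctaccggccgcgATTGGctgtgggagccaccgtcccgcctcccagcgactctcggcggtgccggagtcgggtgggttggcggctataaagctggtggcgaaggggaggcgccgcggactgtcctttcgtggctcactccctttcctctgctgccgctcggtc
The INSIG1 window held 1 CCAAT match and the HMGCS1 window 2. These matches describe letters in a window and say nothing of binding in these cells.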

How the data were processed

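RNA sequencing covered 6 K562 cultures, grouped by their titles into 3 mimic and 3 control libraries. The values are expected counts, estimated by the authors and deposited per gene symbol as whole numbers, not scaled; the submitters' processing notes name kallisto and the build GRCh38. The kallisto version, the annotation, the strandedness and the way transcripts were summed to genes are not given in the sources used here. Totals were 704448 to 25982085 counts; 5 libraries had medians of 556 to 613 counts per tested gene and mimic 1 had 16.

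The main test used edgeR 4.0.16 under R 4.3.3 (filterByExpr, TMM, quasi-likelihood F-test on group, Benjamini-Hochberg adjustment, threshold 0.05). The SE of a log2 fold change is its size over the square root of F. Per-library log2 differences used a prior count of 2. Alternatives were DESeq2 1.42.0, limma-voom (limma 3.58.1), median-of-ratios scaling, no filter, a floor of 1 CPM on the mean, thinning to the depth of mimic 1, a replicate block, and leaving out each library in turn; the block without each pair and replicates 1 and 2 alone were added after the values were seen. The code was tested on simulated data. The result of 1 marker gene is not reported here. The members, the lists and the rule for genes given per library (those that passed in either fit or had an unadjusted p under 0.05, and the member of the highest mean CPM in each role group) were chosen with earlier results of these data known.

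After group means were removed, libraries of the same number correlated at 0.15, 0.16 and 0.42 for replicates 1, 2 and 3 over all tested genes, so the block is given beside the main fit. Over 4829 abundant genes (mean of 1000 counts or more) they were 0.37, 0.48 and 0.63, but the crossed pairs of replicates 1 and 2 also reached 0.52 and 0.25 there, so the numbers set replicate 3 apart and not replicates 1 and 2 from each other. Chi-square tests of the counts gave the smallest mean per gene, 1.81 (median 0.624), for mimic 1 and 2, where the depth of mimic 1 limits what can be seen, and 4.83 for control 1 and 2; sampling alone gives a mean of about 1, so no libraries were merged. The p-values of the fit on group alone set the group difference against the spread between cultures labelled biological replicates. Those of the blocked fit set it against the spread left once differences between replicate numbers are removed. Control 1 and 2 lay closer to each other (4.83) than to control 3 (48.4 and 43). The fit on replicates 1 and 2 alone leaves that wider spread out. The blocked fit without the replicate 3 pair also rests on replicates 1 and 2, so its p-values leave out how the group difference varied with replicate 3. Each blocked fit without a pair rests on few libraries.

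Seed matches were searched for in each gene's longest 3′ UTR among protein-coding transcripts of GENCODE v29 (12888 tested genes had one), with Python 3.11.15, numpy 2.4.6 and pandas 2.3.3; figures used matplotlib 3.10.9. Confidence intervals are 95%.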

Additional observations from a re-analysis of the deposited data

How the results depend on the processing

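Depth and the spread between replicate numbers limit these results: 28 of the 35 tested members had under 100 counts in mimic 1, and 3 counts there stood for 4.08 CPM, against 0.115 to 0.125 CPM elsewhere. All tested genes lower and higher with the mimic numbered 142 and 63, and 247 and 141 with DESeq2, 84 and 35 after thinning, 975 and 664 with the replicate block, and 1296 and 938 in replicates 1 and 2 alone. Leaving out each library gave 56 to 148 lower and 14 to 53 higher genes, and the block without pair 1, 2 and 3 gave 751, 549 and 866 lower and 486, 285 and 554 higher genes. The count of lower members, 1 in the main test, was 7 with the replicate block (5, 3 and 7 without pair 1, 2 and 3), 10 in replicates 1 and 2 alone, 0 in limma-voom and 0 to 1 with a library left out. The count of higher members, 0 in the main test, was 1 with the block (0 to 1 with a pair left out), 1 in replicates 1 and 2 alone and 0 with each library left out. In replicates 1 and 2 alone the lower members were INSIG1, MSMO1, IDI1, CYP51A1, STARD4, MYLIP, SCD, ACLY, DHCR7 and FDFT1, and SCAP was higher. Of the 42 other pathway genes those lower with the mimic numbered 1 in the main test, 3 with DESeq2, 2 with no filter, 0 in limma-voom and after thinning, 6 with the block (4 to 9 with a pair left out), 10 in replicates 1 and 2 alone and 0 to 2 with a library left out. The higher ones numbered 1 in the main test, 0 after thinning, 1 to 4 with the block and a pair left out, 3 in replicates 1 and 2 alone and 0 to 1 with a library left out. The median log2 fold change of the members, -0.04, ran from -0.21 to 0.10 with a library left out. Of the genes whose libraries are given, FASN, HMGCS1, SQLE, ACAT2, LSS, SREBF1, ABCA1 and TM7SF2 changed direction under at least 1 alternative, and these passed under none; ACAT2 and LSS did so with the block (-0.10 and -0.06, against 0.01 and 0.01 without it); the replicate block changed no call among members or other pathway genes beyond those given in the report. The cause of the other shifts was not tested.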

Other observations

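COQ2, which attaches the isoprenoid tail of coenzyme Q and draws on the mevalonate pathway, was singled out after its values were seen. It had 13.6, 12.7 and 1.92 CPM in mimic 1, 2 and 3, against 2.82, 3.08 and 3.08 CPM in control 1, 2 and 3, so that mimic 1 and 2 were high and mimic 3 was below every control library. Its value in mimic 1 rested on 10 counts, with a counting error of 31.6%. Its log2 fold change of 1.46 ± 0.62 did not pass (edgeR adjusted p = 0.350), nor with the replicate block (1.09 ± 0.40, adjusted p = 0.092). Without mimic 3 it was 2.11 and passed (adjusted p = 0.011). The wider list did not rise in replicate 3 as the members did. Of its 42 tested genes 16 were higher in mimic 3 than in mimic 2 (50% of all tested genes were). In control 3, 20 were higher than the mean of control 1 and 2 (50.6% of all tested genes were). The medians were -0.04 and -0.01 on the log2 scale. FADS1 was lower in replicate 3 by 0.62 in the mimic group and 0.57 in the control group (log2 differences of the kind given for the members). ELOVL5, a fatty acid elongase, was lower by 0.57 and 0.44, while LPIN1 was higher by 0.78 and 0.78.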
